A study of Mus musculus with 4 samples.

Results

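The cells described here are 144 monocytes chosen by their UMIs of Ly6c2 and Plac8 from injured mouse Achilles tendon. They came from 1 droplet library, the Vegfc CRE library at day 7 after the treatment that the labels call B/T, and made up 2.04% of its 7071 filtered cells (95% exact binomial interval 1.72% to 2.39%). The series holds 19021 filtered cells in 4 libraries. A UMI (unique molecular identifier) marks a captured transcript, and filtered cells are barcodes that held 500 genes or more and 1000 UMIs or more, with less than 15% of the UMIs from mitochondrial genes. A cell was a member with at least 3 UMIs of Ly6c2 and Plac8 together and at least 1 of Csf1r and Ccr2. It also had under 5 UMIs of C1qa, C1qb and C1qc, under 10 of H2-Aa, H2-Ab1 and H2-Eb1, under 20 of S100a8 and S100a9, under 20 of Col1a1, Col1a2 and Dcn, and none of the Cd3 genes, Cd79a or Ms4a1. The members were chosen by the measured UMIs of these genes, the gate genes below, so their values are description. Other genes of the same cells vary with them, so no test was made on any gene.

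The other 3 libraries came from Prox1 eGFP animals, untreated tendon at day 0 and tendon at 7 and 21 days after B/T. Each library pooled the cells of 5 Achilles tendons freed with collagenase and dispase, so each group was a single sample and no difference between groups has a replicate check. The labels expand neither B/T nor the use of Vegfc CRE, and age, strain and further alleles are not given in the sources used here. One label describes sorting for Prox1-expressing cells and another calls the cells unsorted. Prox1, the transcription factor of lymphatic endothelium, had no UMI in the 144 monocytes, and Vegfc had 1 UMI in 1 of them.

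Monocytes are made in bone marrow and travel in blood. In mice, the classical or inflammatory kind has much Ly6C on its surface, leaves the marrow and enters inflamed tissue through the chemokine receptor CCR2, and can turn into macrophages or dendritic cells there. The patrolling kind has little Ly6C, depends on the transcription factor Nr4a1 and crawls along vessel walls.

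The promoters of 4 genes are shown first. Ly6c2 and Plac8 chose the members, while Ms4a4c and Ifitm6 are monocyte genes that the rule did not use. Each sequence holds the 250 bases before the start of transcription in RefSeq on GRCm38.p6, read 5′ to 3′ on the gene's strand. Capitals mark GAGGAA, the core letters bound by PU.1 (the product of Spi1, the main transcription factor of myeloid cells), and the composite of an ETS and an IRF site, which reads GGAA, any 2 bases and GAAA, on either strand.
Ly6c2, chr15:75111972-75112221, minus strand: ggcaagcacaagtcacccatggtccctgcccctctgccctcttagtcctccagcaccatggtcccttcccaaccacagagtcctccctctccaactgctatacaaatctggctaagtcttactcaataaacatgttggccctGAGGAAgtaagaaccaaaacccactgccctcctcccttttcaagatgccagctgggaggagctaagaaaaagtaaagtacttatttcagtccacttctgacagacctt
Plac8, chr5:100572206-100572455, minus strand: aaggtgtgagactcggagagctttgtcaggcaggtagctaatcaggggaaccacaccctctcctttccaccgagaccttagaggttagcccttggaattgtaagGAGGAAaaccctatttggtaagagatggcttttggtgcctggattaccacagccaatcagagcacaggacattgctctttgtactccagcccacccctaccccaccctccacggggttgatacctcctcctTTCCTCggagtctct
Ms4a4c, chr19:11407411-11407660, plus strand: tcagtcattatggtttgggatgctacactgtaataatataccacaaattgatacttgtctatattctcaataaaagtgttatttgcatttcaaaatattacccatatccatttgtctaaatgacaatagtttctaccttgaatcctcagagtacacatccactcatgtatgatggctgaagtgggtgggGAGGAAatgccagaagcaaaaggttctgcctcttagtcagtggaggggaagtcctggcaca
Ifitm6, chr7:141016893-141017142, minus strand: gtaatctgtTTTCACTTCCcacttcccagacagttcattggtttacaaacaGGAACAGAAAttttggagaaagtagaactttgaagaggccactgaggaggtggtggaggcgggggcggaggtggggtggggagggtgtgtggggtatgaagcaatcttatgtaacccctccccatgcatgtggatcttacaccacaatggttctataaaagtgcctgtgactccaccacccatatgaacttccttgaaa
The PU.1 letters occurred once for Ly6c2 and Ms4a4c and at 2 places for Plac8, and the composite letters at 2 places for Ifitm6. Over 32851 promoters of 27025 genes of the same length, 23.3% held the PU.1 letters and 2.30% the composite letters, whose first bases can overlap the PU.1 letters. The C/EBP letters TTNNGCAA, in 9.56% of promoters, were in none of these 4 windows. RefSeq gives a second start for Ly6c2, whose window held 2 matches of the PU.1 letters, and for Plac8, whose window held no PU.1 letters and 1 match of the C/EBP letters. The windows of Chil3 and Vcan, which the rule did not use either, held no match of these motifs and are not shown. Each of the 2 windows of Ly6c1, an endothelial gene, held 1 match of the PU.1 letters. A match is a stretch of letters, and binding was not measured.

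Gate genes differed in how evenly the members carried them. Plac8, which encodes a small cysteine-rich protein of myeloid and lymphoid cells, was found in 142 of the 144 cells, with a median of 15.5 UMIs and a maximum of 127. Ly6c2, which encodes the Ly6C surface antigen, was found in 90 cells, with a median of 1 and a maximum of 23, and 54 cells entered on Plac8 alone. Both were present in 88 cells. Ccr2 was found in 127 cells (median 5 UMIs) and Csf1r, the receptor for macrophage colony-stimulating factor, in 113 (median 2). Vcan, the proteoglycan versican and a marker of classical monocytes that the rule did not use, was found in 85 cells (median 1, maximum 16). The rule itself asked for UMIs of Ly6c2 or Plac8 and of Csf1r or Ccr2, so their presence does not bear on the name. Of the 5 genes that name the population, Plac8 was the one shared by nearly every cell.

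Reads of Ly6c2 can be mistaken for those of its neighbour Ly6c1, an endothelial gene. The last 300 bases of their most alike GENCODE transcripts matched at 291 of 303 aligned columns (96.0%), so the division of counts between them is uncertain, while their promoters matched at 171 of 290 columns (59.0%). Ly6c1 UMIs were seen in 43 of the 144 cells. The Ly6c2 gene lies at chr15:75108158-75111970 and Plac8 at chr5:100553725-100572245 on mm10, both on the minus strand.

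**Figure D1:**
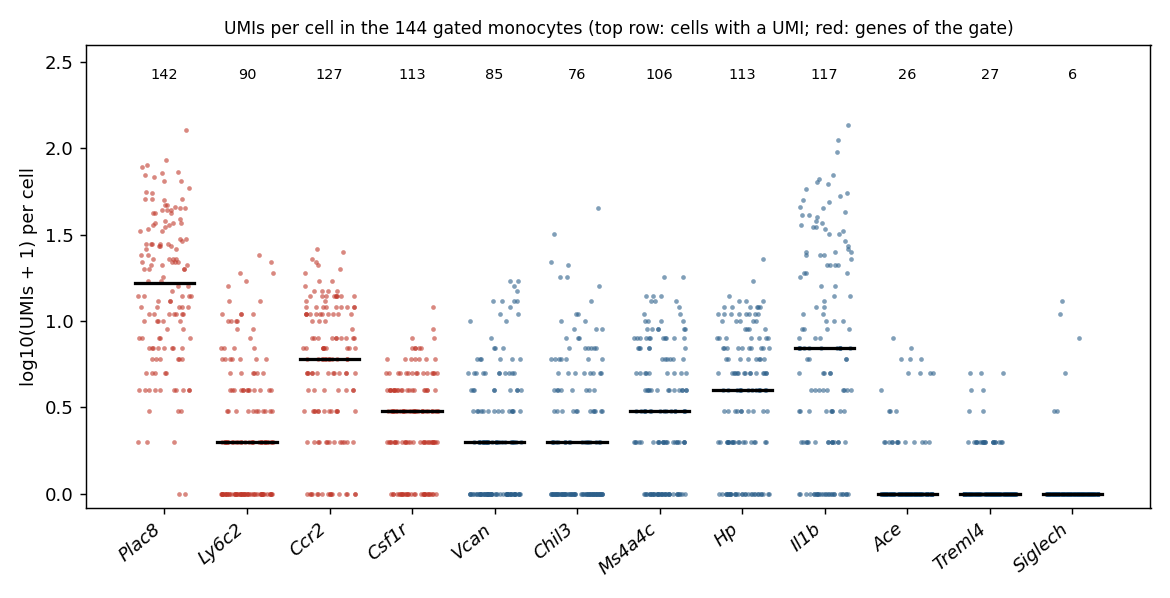
UMIs per cell, as log10(UMIs + 1), of 12 genes in the 144 monocytes of the Vegfc CRE day 7 library, with 1 point per cell, a line at the median and the number of cells with a UMI above. Plac8 was found in 142 cells and Ly6c2 in 90, and Vcan and Chil3 in 85 and 76.

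Some members lay near the limits of the rule. Cells with 2 UMIs of Ly6c2 and Plac8 that met every other condition numbered 18, against 12 members with exactly 3 and 8 with 4. Of Csf1r and Ccr2 together, 11 members had 1 UMI and 28 cells outside had none. Of the class II limit, 3 members had 9 UMIs and 4 cells outside had 10. The highest C1q sum among members was 3, and 107 members had none. The condition on Ly6c2 and Plac8 alone kept out 241 cells, that on class II genes 213, that on collagens and Dcn 86 and that on C1q genes 45.

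A clustering of all 7071 cells, in which the gate genes took part, placed 123 members (85.4%) in 1 of 28 clusters. That cluster held 559 cells and was led by Chil3, Adgre4, Ly6c2, Ly6i and Ms4a4c. Its other 436 cells fell outside the rule, 355 of them with 10 or more class II UMIs, 251 with under 3 UMIs of Ly6c2 and Plac8 and 163 with 5 or more of C1q, where a cell can fail several conditions. The rule thus took the part of this cluster with little class II and C1q RNA. A further 5 members lay in a cluster led by Xcl1, Il17a and Nkg7, genes of lymphocytes, and 4 in a cluster of 26 cells led by Siglech, Klk1 and Ccr9, genes of plasmacytoid dendritic cells.

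**Figure D2:**
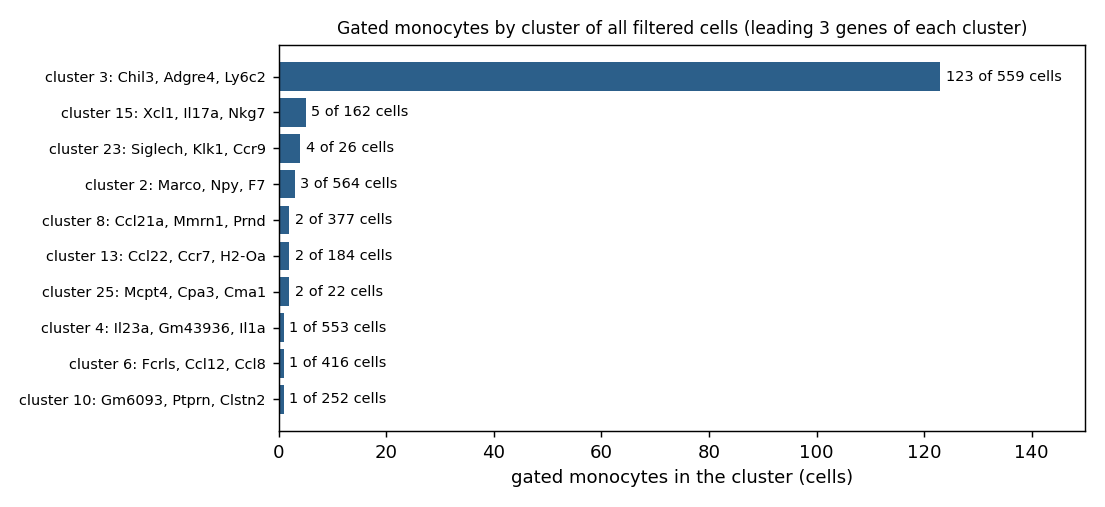
Number of monocytes and of all filtered cells in each cluster of the Vegfc CRE day 7 library that held a member. The largest bar of members is cluster 3, with 123 of 144.

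Defining markers of other lineages, by a short list for each, were present in 15 of the 144 members (10.4%, 95% exact interval 5.95% to 16.6%). By lineage, 7 had UMIs of Siglech, Ccr9 or Cox6a2 (plasmacytoid dendritic), 5 had UMIs of Ncr1, Klrb1c, Gzma, Klre1, Eomes, Trbc1, Trbc2 or Trac (NK or T cell), 2 of Mcpt8, Cpa3, Fcer1a or Ms4a2 (basophil or mast cell) and 3 at least 2 UMIs of Cdh5, Cldn5, Egfl7 or Emcn (endothelial). Over all 144 members, longer marker lists summed to 703 CPM (UMIs of a gene in each 1000000) for the 10 plasmacytoid genes, 253 for the 12 NK and innate lymphoid genes, 64.1 for the 8 T cell genes, 43.5 for the 8 basophil and mast cell genes and 290 for the 10 endothelial genes. At least 1 UMI of the NK and innate lymphoid list was seen in 23 members, of the T cell list in 9 and of the basophil and mast cell list in 4. Klk1 and Cma1 were at 0 among them, as were Prox1 and Flt4, which mark lymphatic vessels. Fibroblast genes outside the rule summed to 432 CPM, against 37060 in the library's fibroblasts, and Pdgfra and Pdgfrb were at 0. These 15 cells were kept in the main values, and the counts over all genes, those of the classical list and other list counts given below that moved by more than 1 are also given without them. A doublet caller marked 1 of the 144 members.

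The members were of moderate depth, from 1357 to 30415 UMIs per cell with a median of 6035.5, and gave 873192 UMIs in all. Levels are given as CPM of this sum, with 95% exact Poisson intervals. They count the 3′ end of each transcript, so gene length does not enter. Genes with Gm, Rik, mt-, Rpl or Rps names were left out of the ranking by CPM. The highest of the rest was Tmsb4x, an actin-binding peptide, at 18335. Next was Lyz2, the myeloid lysozyme, at 17350 (17075 to 17629), seen in 136 of 144 cells. Ifitm3, an interferon-induced membrane protein, stood at 4000, S100a6 at 3263 and S100a4, a calcium-binding protein of motile cells, at 3199. Hspa1a, an inducible heat-shock chaperone, stood at 4337 CPM and was seen in 122 cells, and heat-shock genes can be induced while tissue is digested. That part was not tested.

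Droplets also catch free RNA, so shares of cells with a UMI were set beside those in 1656 fibroblasts, cells with at least 100 UMIs of Col1a1, Col1a2 and Dcn, after every cell was thinned to 2000 UMIs. The median depth before thinning was 23375 UMIs in fibroblasts and 6035.5 in monocytes, and 2 monocytes and 3 fibroblasts were too shallow to enter. Ly6c2, a gate gene, was then seen in 40.8% of monocytes and 0.181% of fibroblasts, a gap that the choice of members partly fixed. Chil3, a chitinase-like protein of classical monocytes, was seen in 40.8% and 0%, and Ms4a4c, a tetraspan membrane protein, in 54.9% and 0.0605%. For Plac8, also a gate gene, the shares were 94.4% and 23.8%, and for Hp, the haemoglobin-binding protein haptoglobin, 61.3% and 22.7%. Whether the fibroblasts' UMIs of Plac8 and Hp were free RNA or their own transcripts was not tested, so these shares do not measure free RNA. Vcan was seen in 40.8% of monocytes and in 44.8% of fibroblasts, which make it themselves. Without thinning, Ly6c2 was seen in 62.5% of the monocytes, Chil3 in 52.8% and Ms4a4c in 73.6%.

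The monocytes were compared with 3 other myeloid groups of their own library, under the same cell filter and the same limits on T cell, B cell and collagen genes. C1q macrophages (747 cells) had at least 10 C1q UMIs and met the monocytes' limits on Csf1r and Ccr2, class II and S100a genes. MHC class II myeloid cells (374 cells) had at least 20 UMIs of H2-Aa, H2-Ab1 and H2-Eb1 and met the limits on Csf1r and Ccr2, C1q and S100a genes. Neutrophils (924 cells) had at least 50 UMIs of S100a8 and S100a9 and at least 1 of Csf3r, and met the limits on C1q and class II genes. Median depths were 9922, 6931.5 and 2202.5 UMIs per cell. Ratios of CPM carry 95% exact conditional binomial intervals, which cover counting error only and not the spread between cells or animals. A gene was called higher or lower by size alone, at 2-fold or more, among genes with at least 10 UMIs over both groups and outside the gate genes.

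Against C1q macrophages, the monocytes had more RNA of genes of blood monocytes and less of genes of settled macrophages. By size, 12.2% of 11860 genes were at least 2-fold higher in monocytes and 18.4% at least 2-fold lower, and the median gene lay at a log2 ratio of −0.13. In numbers these were 1445 and 2182 genes, or 1405 and 2414 without the 15 cells with markers of other lineages. Of 20 classical monocyte genes outside the rule, 14 were higher and 1, F13a1, was lower (median log2 ratio 2.84). Without the 15 cells, 15 were higher and none lower (median 3.03). The list shares its cells with the gate genes, so it is not independent of the choice of members.

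Chil3 stood at 490 CPM (445 to 539) in monocytes and 6.73 in C1q macrophages, 72.8-fold higher (interval 54.9 to 98.3). Hp stood at 688 against 16.5 (41.7-fold), Vcan at 389 against 10.5 (37.0-fold) and Ifitm6, an interferon-induced membrane protein of monocytes, at 369 against 7.59 (48.6-fold). These genes are on the classical list, though Vcan and Hp were also seen in fibroblasts and Chil3 is also on the repair macrophage list. Ms4a4c stood at 573 against 36 (15.9-fold) and Thbs1, which encodes the matrix glycoprotein thrombospondin, at 975 against 123 (7.94-fold). F13a1, a coagulation factor subunit also made by tissue macrophages, went the other way, at 324 CPM against 694 (2.14-fold lower, 1.90 to 2.42), and was 1.85-fold lower without the 15 cells. Fcgr1, the high-affinity IgG receptor, differed little (200 against 225 CPM, ratio 0.890, 0.758 to 1.04).

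Genes of resident, repair and mature macrophages had low CPM in the monocytes. Of 14 resident macrophage genes, 13 were lower by size and none higher (median log2 ratio −4.83). Ccl8, a chemokine of tissue macrophages, stood at 43.5 CPM against 4385 in C1q macrophages (101-fold lower, 73.4 to 142). Pf4, platelet factor 4, which resident macrophages also make, was 52.1-fold lower, Mrc1, the mannose receptor, 41.4-fold lower and Selenop, a selenium carrier, 19.7-fold lower. Folr2, a folate receptor, had 1 UMI in the monocytes and 413 CPM in C1q macrophages, a ratio of 361-fold (64.7 to 14260). Cd163, Timd4 and Vsig4, scavenger and clearance receptors of resident macrophages, had no UMI in the monocytes.

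Of 14 repair macrophage genes, 10 were lower and 1, Chil3, was higher (median −3.68). Trem2, a lipid receptor, stood at 110 CPM against 955 (8.69-fold lower) and Fabp5, a fatty acid carrier, at 388 against 5409 (13.9-fold lower). Gpnmb, a glycoprotein of lipid-laden macrophages, had 2 UMIs against 438 CPM (191-fold lower, 52.9 to 1580). Spp1, which encodes osteopontin, was 10.2-fold lower, and 45.9% of its monocyte UMIs came from 1 cell. Arg1, the arginase of repair macrophages, had 95 UMIs in 7 monocytes, 87.4% of them in 1 cell, so its level of 109 CPM describes that cell.

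Of 15 macrophage differentiation genes, 12 were lower and none higher (median −1.89). Apoe, apolipoprotein E, stood at 2795 CPM against 22932 (8.2-fold lower, 7.88 to 8.54) and was still seen in 120 of 144 monocytes. Ms4a7 was 27.6-fold lower, Adgre1, which encodes the macrophage antigen F4/80, 4.23-fold lower and Cd68, a lysosomal glycoprotein, 3.40-fold lower. Lyz2 was at the same level in both, 17350 against 17576 CPM (ratio 0.987).

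Inflammatory genes were divided. Of 9 inflammatory cytokines measured, 4 were higher in monocytes than in C1q macrophages and none lower. Il1b, the cytokine interleukin-1 beta, stood at 2474 CPM (2370 to 2580) against 176, 14.0-fold higher (13.1 to 15), and was seen in 117 of 144 monocytes, or 69.7% after thinning against 4.66% of fibroblasts. Osm, oncostatin M, was 3.32-fold higher at 57.3 CPM. Tnf, at 66.4 against 54.0 CPM, had a ratio of 1.23 (0.919 to 1.62). Of 16 chemokines, 8 were lower and 2, Ccl4 and Ccl5, higher. Ccl2, the ligand of CCR2, was 2.31-fold lower (83.6 against 193 CPM) and Cxcl16 4.42-fold lower, while Ccl6 and Ccl9 had ratios of 0.939 and 1.03. Ccl5 was higher only with the 15 cells of other markers, since its ratio without them was 0.596. Nlrp3, the sensor of the inflammasome that releases interleukin-1 beta, was 5.98-fold higher (124 against 20.7 CPM).

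Of 12 adhesion genes for leaving the blood, 6 were higher and none lower, or 5 and 1 without the 15 cells. Itgal, an integrin subunit, was 12.6-fold higher than in C1q macrophages, Itgb7 5.91-fold, Itga4 3.09-fold and Cd44, the hyaluronan receptor, 2.37-fold. Among 18 transcription factors, 5 were higher and 3 lower. Cebpb, a C/EBP factor of the inflammatory response, stood at 1997 CPM against 478 (4.18-fold, 3.95 to 4.42), Spi1 at 444 against 325 (1.37-fold) and Cebpa at 21.8 against 97.8 (4.49-fold lower). Irf8, a factor that monocytes need to develop, had a ratio of 0.916, or 0.595 without the 15 cells. Of 19 interferon response genes, 4 were higher and none lower. Ifitm3 was 4.51-fold higher and Isg15, a ubiquitin-like modifier, 2.73-fold. Tgfbi, a matrix protein made by monocytes, stood at 1474 CPM against 553 (2.67-fold), and Plaur, the urokinase receptor, at 165 against 36.6 (4.51-fold). Igf1, a growth factor of repair macrophages, was 30.7-fold lower at 12.6 CPM, and Vegfa stood at 33.2 CPM.

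Heat-shock and early response genes, which can respond to digestion, differed in part. Of 16 such genes, 5 were higher than in C1q macrophages and 1 lower (median 0.73), with Hspa1a 3.89-fold and Nfkbia 2.45-fold higher, and their part in the other ratios was not tested.

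**Figure D3:**
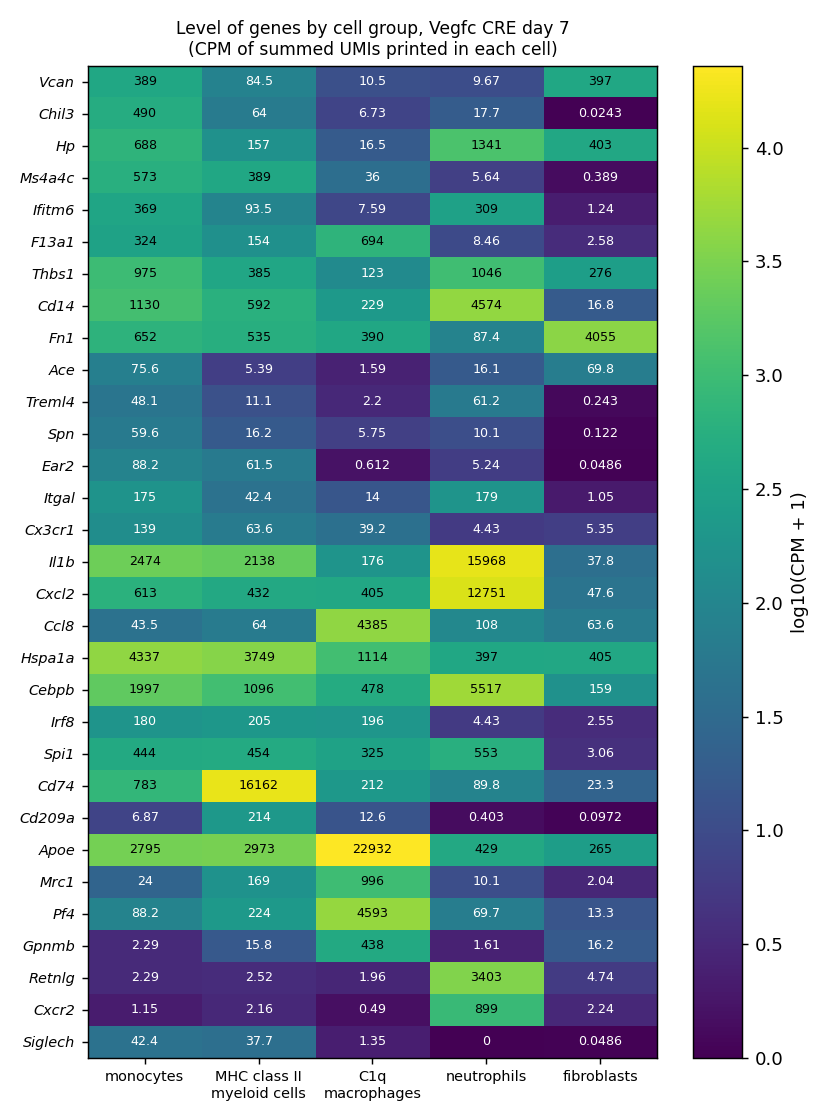
Heat map of 31 genes (rows) in the monocytes, the 3 other myeloid groups and the fibroblasts of the same library (columns), coloured by log10(CPM + 1), with the CPM of the summed UMIs printed in each square. Chil3 stands at 490 CPM in monocytes and 6.73 in C1q macrophages, and Apoe at 2795 and 22932.

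The MHC class II myeloid cells were the nearest of the 3 groups. By size, 6.24% of 10058 genes were at least 2-fold higher in monocytes and 9.16% lower, with the median gene at a log2 ratio of 0.00. In numbers these were 628 and 921 genes, or 515 and 1205 without the 15 cells. Of the 20 classical genes, 10 were higher and none lower (median 1.00), or 12 and none without the 15 cells (median 1.2). Chil3 was 7.66-fold higher (490 against 64.0 CPM, 6.42 to 9.18), Mgst1, a glutathione transferase, 4.85-fold, Vcan 4.61-fold, Hp 4.38-fold and Ifitm6 3.95-fold. Ms4a4c was 1.47-fold higher and Fn1, fibronectin, 1.22-fold.

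Genes of antigen presentation differed the other way, on a contrast that the class II limits of both groups partly fix. Of 6 such genes outside the rule, 5 were lower in monocytes (median −2.53). Cd74, the invariant chain that escorts class II molecules, stood at 783 CPM against 16162 (20.6-fold lower, 19.1 to 22.3). H2-DMa and H2-DMb1, which load peptides onto them, were 3.43-fold and 6.11-fold lower, and Ciita, their shared activator, 5.48-fold. Against C1q macrophages, which the same class II limit held low, Cd74 was 3.69-fold higher and H2-DMa 3.46-fold higher in monocytes.

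Dendritic genes followed class II. Of 12 such genes, 10 were lower and 1, Fscn1, was higher (median −2.14), or 8 and 1 without the 15 cells, and 56.2% of the Fscn1 UMIs came from 1 cell. Cd209a, a lectin of monocyte-derived dendritic cells, was 31.1-fold lower (14.2 to 85.2) and Clec10a, another lectin, 7.21-fold. Flt3, a growth factor receptor of dendritic cells, had 8 UMIs in the monocytes. Retnla, a secreted product of alternatively activated cells, had 1 UMI against 293 CPM, a ratio of 256-fold (45.8 to 10128). Mgl2, a lectin, had none, which with a floor of 3 UMIs over the group makes it at least 24.7-fold lower.

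Of 14 repair macrophage genes, 6 were lower and 2, Arg1 and Chil3, were higher (median −0.77), and of 11 resident macrophage genes 4 were lower and 1, F13a1, was higher (median −0.61). Mrc1 was 7.04-fold lower and Gpnmb 6.90-fold. Growth factor and remodelling genes were divided, with 4 of 21 higher and 5 lower (median −0.01), and of 9 chemoattractant receptors 4 were higher and 1 lower (median 0.51). None of 17 transcription factors was 2-fold apart (median 0.10), or 2 higher without the 15 cells, with Cebpb at a ratio of 1.82 and Irf8 at 0.876, or 0.569 without the 15 cells. Il1b stood at 2474 against 2138 CPM (ratio 1.16, 1.10 to 1.22). Apoe had a ratio of 0.940 and Adgre1 1.16, and 2 of 15 macrophage differentiation genes were lower, 1 of them Ms4a7 (4.0-fold). Ccr1, a receptor for inflammatory chemokines, was 2.11-fold higher and Fpr2, a receptor for formylated peptides, 3.02-fold. Ctla2a and Saa3 led the ratios, but 61.7% of the Ctla2a UMIs and 30.9% of the Saa3 UMIs came from 1 cell, and the Ctla2a ratio was 17.6 with the 15 cells and 0.760 without them.

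Neutrophils were the other blood phagocyte compared. By size, 31.1% of 9580 genes were at least 2-fold higher in monocytes and 17.7% lower, that is 2984 and 1693 genes, with the median gene at a log2 ratio of 0.31. These numbers were 2676 and 1825 without the 15 cells and 1624 and 1768 with a stricter cell filter (1000 genes, 2000 UMIs, under 10% mitochondrial). Scaling by TMM lowered every ratio by 0.42 on the log2 scale and gave 1977 higher and 2476 lower. Ms4a4c was 102-fold higher (60.0 to 187), Ms4a6c 49.3-fold, Vcan 40.3-fold, Irf8 40.6-fold (26.4-fold without the 15 cells), F13a1 38.3-fold and Chil3 27.7-fold. Of the 20 classical genes, 9 were higher and 4 lower (median 0.56), and the same numbers held without the 15 cells (median 0.71). Those lower included Gda, Clec4e (7.77-fold) and Cd14 (4.05-fold), the last a coreceptor for bacterial lipopolysaccharide that stood at 1130 CPM in monocytes.

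Neutrophil genes outside the rule had low CPM in the monocytes, 10 of 11 lower and none higher (median −6.13). Retnlg, a neutrophil product, had 2 UMIs against 3403 CPM, a ratio of 1486-fold (411 to 12270). Cxcr2, the neutrophil chemokine receptor, had 1 UMI, and G0s2 was 224-fold lower. Stfa2l1 had none and was at least 439-fold lower. Ltf, Camp, Ly6g, Mpo and Elane, granule and surface genes of neutrophils and their precursors, were at 0. Macrophage differentiation genes were higher in 10 of 14 and lower in 1 (median 1.75), with Apoe 6.51-fold higher. Lyz2 was 12.8-fold higher and Cybb, the catalytic subunit of the phagocyte oxidase, 13.1-fold.

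Neutrophils carried more RNA of most inflammatory cytokines. The chemokine and interferon response lists lay near the median gene (0.31), at median log2 ratios of 0.17 and 0.23. Of 10 cytokines, 6 were lower in monocytes and 2 higher (median −1.94), with Il1b 6.46-fold lower (2474 against 15968 CPM), Tnf 6.08-fold and Osm 5.03-fold. Cxcl2, a chemokine that draws neutrophils, was 20.8-fold lower (613 against 12751), Nlrp3 7.31-fold, Ccr1 7.01-fold and Nfkbia 5.62-fold. Ccl2 was 3.99-fold higher in monocytes, Ccl9 6.74-fold and Cxcl16 9.67-fold. Of 17 glycolysis and hypoxia genes, 8 were lower and none higher (median −0.93). Immediate early and heat-shock genes were lower in 10 of 16, or 8 without the 15 cells, while Hspa1a was 10.9-fold higher, and their part in the other ratios was not tested.

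**Figure D4:**
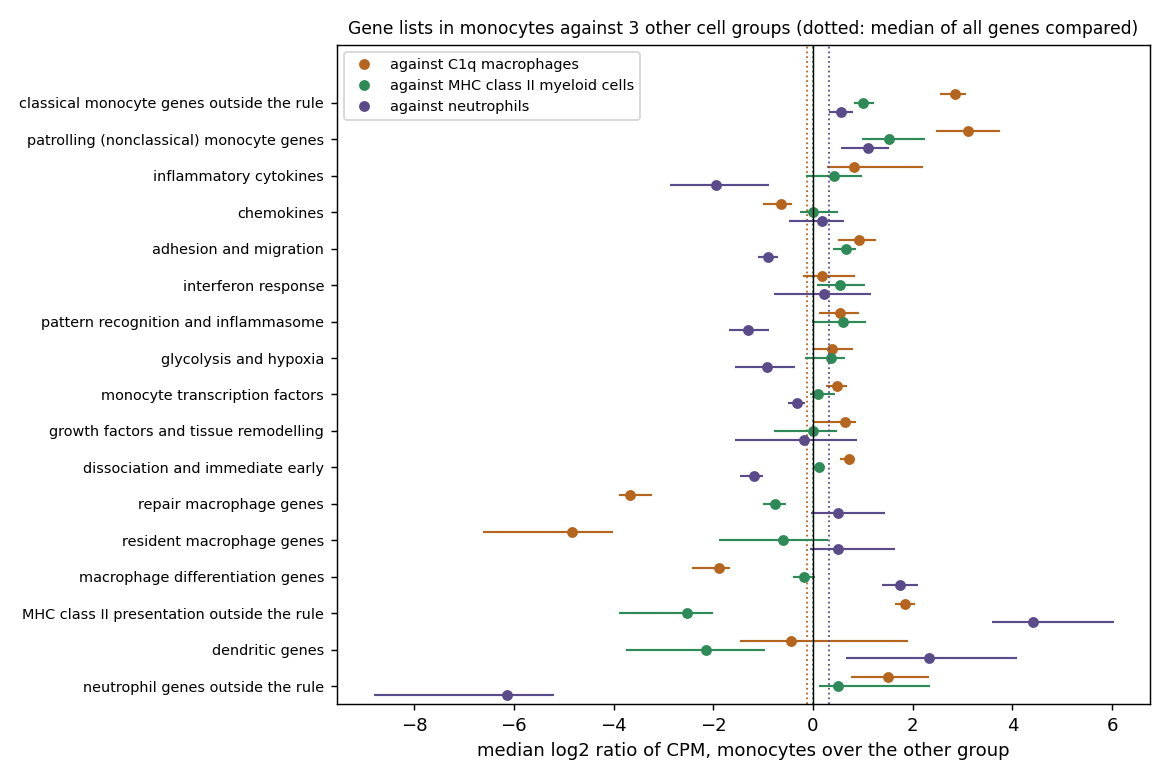
Median log2 ratio of CPM for 17 gene lists, monocytes over C1q macrophages, MHC class II myeloid cells and neutrophils. Bars run between the medians, over the genes of a list, of the lower and upper bounds of their 95% ratio intervals, dotted lines mark the median of all genes compared, and the classical list lies at 2.84, 1.00 and 0.56.

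Genes of patrolling monocytes differed as well. Of 14 such genes, 11 were higher and 3 lower than in C1q macrophages (median 3.10), and 9 and 1 than in MHC class II cells (median 1.52). Against neutrophils 7 were higher and 4 lower (median 1.10, but −0.033 among genes with at least 50 UMIs). Those lower were Fabp4, Cd36 and Bcl2a1b against C1q macrophages and Bcl2a1b against MHC class II cells. Against neutrophils they were Fabp4, Pglyrp1, Cd36 and Bcl2a1b. Summed over the list, CPM was 1364 in monocytes, 1075 in C1q macrophages, 826 in MHC class II cells and 2789 in neutrophils. Ear2, a ribonuclease, stood at 88.2 CPM against 0.612 in C1q macrophages (144-fold, 59.1 to 456). Adgre4, an adhesion receptor, was 26.0-fold higher, Spn, which encodes CD43, 10.4-fold, and Cx3cr1, the fractalkine receptor, 3.54-fold, with 31.4% of its UMIs in 1 cell. Ace, the angiotensin-converting enzyme, was 47.5-fold higher at 75.6 CPM, but was seen in 9.86% of thinned monocytes and 13.7% of thinned fibroblasts. Nr4a1 stood at 370 CPM, 3.27-fold higher than in C1q macrophages and at a ratio of 1.51 to MHC class II cells.

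At least 1 UMI of the 14 patrolling genes was seen in 125 of 144 members, and UMIs of 3 or more of the genes in 67. Ace or Treml4 (a surface receptor of patrolling monocytes) was seen in 40 of 144 members (27.8%, 20.6% to 35.8%), Chil3 in 76 (52.8%), both in 20 and neither in 48. Without the 40 cells, the 12 remaining patrolling genes were higher in 7 and lower in 4 against C1q macrophages (median 1.47). Against MHC class II cells they were then higher in 2 and lower in 5 (median −0.39) and against neutrophils higher in 4 and lower in 5 (median −0.98). Since part of the members had UMIs of patrolling genes, the word inflammatory is not used for all of them here.

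To show how the members differ among themselves, the 38 with an Ace or Treml4 UMI were set beside the 91 without, leaving out the 15 cells with markers of other lineages. This split was chosen after the data were seen, and the median depth was 4673.5 UMIs with and 6321 without. By size, 9.79% of 5906 genes were at least 2-fold higher with Ace or Treml4 and 11.4% lower. Of the 12 other patrolling genes, 10 were higher and none lower (median 2.76). Ear2 stood at 333 against 24.8 CPM (13.4-fold, 7.44 to 25.9) and was seen in 63.2% of cells against 6.59%. Itgal stood at 481 against 92.2 CPM (5.22-fold), Adgre4 was 8.05-fold higher, Spn 10.6-fold, Pglyrp1 21.5-fold (8.40 to 70.1) and Eno3 34.8-fold (11 to 177). Among 17 transcription factors 4 were higher and none lower, namely Bhlhe40 (3.22-fold), Klf4 (2.94-fold), Klf2 (2.66-fold) and Nr4a1 (2.50-fold).

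Some classical genes were lower in the cells with Ace or Treml4, though only Fcgr1 of 20 by 2-fold (ratio 0.346). Vcan had a ratio of 0.553 and was seen in 36.8% of cells against 76.9%, Ly6c2 0.569, Ccr2 0.582, Thbs1 0.565 and Ms4a4c 0.585. Chil3 and Hp did not follow, at ratios of 1.43 and 1.45, nor did Plac8 at 1.42, and the median of the list was 0.02. The rule chose members by the sum of Ly6c2 and Plac8 and the sum of Csf1r and Ccr2. A member low in Ly6c2 had to carry Plac8, and a member low in Ccr2 had to carry Csf1r. The ratios of these gate genes are thus partly set by the rule and are description only. Interferon response genes were lower in 7 of 19 and higher in none (median −0.86), with Isg15 at 68.7 against 342 CPM (ratio 0.201). Il1b had a ratio of 1.29.

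**Figure D5:**
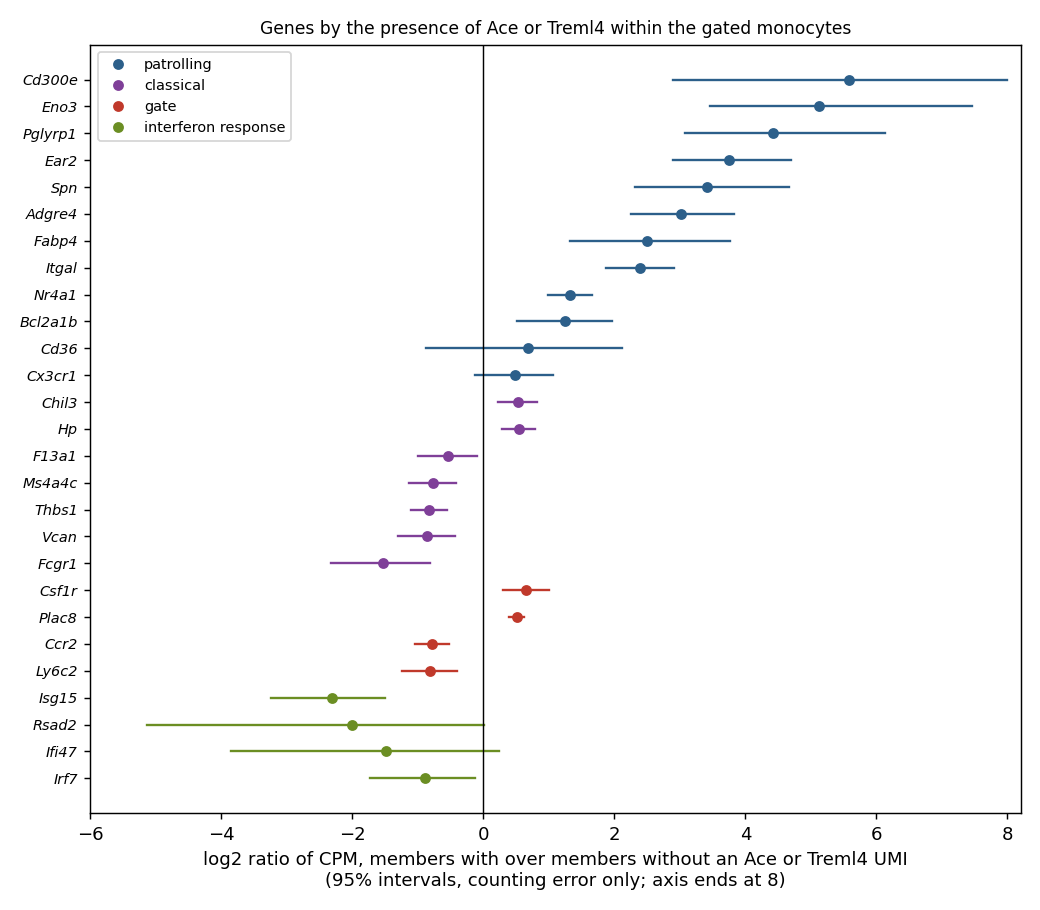
Log2 ratio of CPM for patrolling, classical, gate and interferon response genes, the 38 monocytes with an Ace or Treml4 UMI over the 91 without. Points are ratios and bars 95% exact conditional binomial intervals, and the 4 interferon response genes and Vcan lie left of 0 while 10 patrolling genes lie at 1 or more.

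Chil3 gave another way to divide the members. After thinning, 57 cells with and 70 without a Chil3 UMI were compared, again without the 15 cells, at median depths of 6321 and 5812 UMIs. By size, 5.59% of 5899 genes were at least 2-fold higher with Chil3 and 6.9% lower. None of 19 other classical genes was 2-fold apart (median 0.24), with Hp at 1.40, Vcan at 1.36 and Ly6c2 at 1.13 (0.916 to 1.41). Of 14 patrolling genes, 4 were lower, including Ace (0.192), Spn (0.328) and Adgre4 (0.484). Cd74 had a ratio of 0.536, and of 19 interferon response genes 6 were lower, including Irf7, a transcription factor of the interferon response (0.390).

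A C1q UMI was present in 37 members, and 34 remained without the 15 cells, against 95 with none. Of the 37, 32 had exactly 1 C1q UMI, and whether these were free RNA was not tested. By size, 5.38% of the genes compared were at least 2-fold higher with C1q and 9.46% lower. Ms4a7 was 3.81-fold higher (2.03 to 7.29) and Cd74 1.92-fold, while Apoe had a ratio of 1.06. Thbs1 had a ratio of 0.437 and Vcan 0.587, and of 14 macrophage differentiation genes only 1 was higher. On thinned counts the split left 13 cells with C1q, too few for more than this.

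The rule found under 30 such cells in each of the other libraries. At day 0 it gave 10 of 690 filtered cells (1.45%, 0.697% to 2.65%), an interval that holds the 2.04% of the Vegfc CRE library. It gave none of 4872 in the Prox1 eGFP library at day 7. That allows up to 0.0616% by a limit of 3 cells and 0.0757% by the upper end of the exact interval. At day 21 it gave 3 of 6388 (0.0470%, 0.00969% to 0.137%). At days 7 and 21 the rules of the other myeloid groups also found few cells in the Prox1 eGFP libraries. C1q macrophages, MHC class II myeloid cells and neutrophils numbered 6, 5 and 2 at day 7 and 21, 31 and 1 at day 21. They numbered 0, 28 and 2 of 690 cells at day 0 (0%, 4.06% and 0.290%). In the Vegfc CRE library they numbered 747, 374 and 924 of 7071 (10.6%, 5.29% and 13.1%). Median depths of the 4 libraries lay between 7064.5 and 8556 UMIs per cell. The Prox1 eGFP library at day 7 listed 27998 genes and the others 32285. Vegfc CRE against Prox1 eGFP, the library and any sorting of its cells cannot be told apart at day 7, since each was 1 library. With under 30 such cells elsewhere, no gene was compared across libraries. The Vegfc CRE library shared 2 to 12 cell barcodes with each of the others.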

How the data were processed

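Droplet single-cell RNA libraries (Single Cell 3′ v3 chemistry, per the labels' protocols) were measured in 4 pools of mouse tendon cells, 1 per group. The deposited values are raw UMI counts, 1 for each gene and barcode. The submitters' processing notes name Cell Ranger 5.0.1 and the mm10 build for this step. The libraries held 717, 5051, 6704 and 8711 barcodes and 6761289 to 92568978 UMIs. The cell filter removed 27, 179, 316 and 1640 barcodes. Precision was set by 873192 UMIs in the monocytes.

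UMIs were summed over the cells of a group and given as CPM. With 1 library a group no test was run. Exact Poisson, conditional binomial and Clopper-Pearson intervals cover counting error only. A gene at 0 in a group was set to a floor of 3 UMIs over that group. Symbols were taken from the deposited gene table, and the calculation of ratios was tested on simulated data. Python 3.11.15, scipy 1.17.1, scanpy 1.11.5 (2000 variable genes, 30 components, 15 neighbours, Leiden resolution 1) and edgeR 4.0.16 for TMM factors were used. Scrublet marked 93 of 7071 cells as doublets (1.32%), which were kept. Cells were thinned to 2000 UMIs for shares of cells.

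The genes named are the gate genes, members of 31 gene lists with many UMIs, at 0 or 2-fold apart, the 15 highest by CPM, and the leading 10 on each side of a comparison or 5 of a split, among genes with at least 100 UMIs in the higher group. Genes with Gm, Rik, mt-, Rpl or Rps names were left out of these rankings. Ly6i, Xcl1, Il17a and Nkg7 are named as leaders of clusters. The members and lists were chosen with earlier results of these data known. The exclusion of cells with markers of other lineages, the split by Ace or Treml4 and the fibroblast background were added after seeing the data. RefSeq promoters on GRCm38.p6 were matched by symbol. Ly6a2, Mx1, Clec7a and Aldoa were not matched in the files. Values of some list members are not reported here.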

Additional observations from a re-analysis of the deposited data

How the results depend on the processing

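The number of monocytes lay between 124 and 143 under the other settings of the rule, the cell filter, thinning, doublet removal and removal of cells with markers of other lineages, against 144. No paired analysis was possible because each group was 1 library and replicate numbers were given in accession order. Genes at least 2-fold higher in monocytes than in neutrophils numbered 1624 with the stricter cell filter and 1977 with TMM factors, against 2984. With at least 50 UMIs over both groups and 1 in each, 601 genes were higher than in C1q macrophages, 157 higher and 249 lower than in MHC class II cells, and 1360 higher and 1020 lower than in neutrophils, since fewer genes were compared. Thinned to 2000 UMIs, 789 genes were higher than in C1q macrophages, against 1445. The split by C1q gave 409 higher genes on raw UMIs and 1363 on thinned ones, where only 13 cells had C1q. Log2 ratios changed sign for Arg1 with Ly6c2 and Plac8 at 5 or more UMIs (−2.30 against MHC class II cells, −0.036 against neutrophils), because its main cell was lost. Without cells with markers of other lineages they did so for Ctla2a (−2.49 against C1q macrophages, −0.40 against MHC class II cells) and Ccl5 (−0.75 against C1q macrophages). Without cells with an Ace or Treml4 UMI they did so for Eno3 (−0.38, −0.94 and −0.63 in the 3 comparisons), for Folr2 against neutrophils (0.085) and for the patrolling list (−0.39 against MHC class II cells, −0.98 against neutrophils). That list also lay at −0.033 against neutrophils with at least 50 UMIs; the cause was not tested. Depth limits genes with few UMIs in 144 cells, and every value rests on 1 library.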
